A study of Mus musculus with 4 samples.

Results

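The subunits of the RNA exosome, a protein complex that degrades RNA from its 3′ end, were followed as mRNAs in RAW264.7 cells, a mouse macrophage line, while transcription was blocked. The members were 10 exosome subunit genes of the 41324 genes in the deposited table, all with counts: Exosc1, Exosc2, Exosc3, Exosc4, Exosc5, Exosc7, Exosc8, Exosc9, Exosc10 and Dis3. All 10 were among the 10837 genes with a mean level of at least 1 CPM (a gene's counts per 1e+06 counts of a library) over the libraries. The 4 libraries came from untreated cells (0 h) and from cells given 10 µg/ml of the DNA-binding drug actinomycin D for 2, 4 or 6 h, with 1 library at each time. The labels name cytoplasmic RNA as the material, and all 4 samples are the same line with no genetic change named. Such a course follows how fast existing mRNAs are lost.

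The exosome core is a barrel without catalytic activity of its own in mammals. A ring of subunits related to the bacterial nuclease RNase PH is topped by a cap of RNA-binding subunits with S1 and KH folds, and RNA is threaded through the channel to the nuclease DIS3 at the base. EXOSC10, a second nuclease, sits on the cap side and is mostly nuclear. In the nucleus the complex trims ribosomal and small nucleolar RNAs and destroys promoter-derived transcripts. In the cytoplasm it degrades deadenylated mRNAs, fed by the SKI complex.

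Total counts were 35669434, 38260540, 70289647 and 12762100 at 0, 2, 4 and 6 h, of which the 10 members held 19193, 28091, 47326 and 6903. All 10 macrophage markers examined passed the abundance filter, with a summed level between 4325.5 and 5733 CPM per library, and 0 of 16 markers of T cells, B cells, fibroblasts, epithelium and endothelium did. With 1 library per time, no time point had a replicate, and separate cultures are not stated for the times. In such bulk samples fewer cells and less RNA per cell cannot be told apart. Intervals on counts are exact binomial 95% intervals and cover counting error only. Libraries were scaled with TMM, which sets the typical gene near 0 change. A level above 100% of untreated therefore says only that an mRNA kept up better than the typical gene, whether or not its own amount declined. The divisors behind the authors' normalized values, an alternative scaling, moved the median gene by −0.52 log2 at 6 h relative to TMM.

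The genes lie apart in the genome and their mRNAs differ in the length of the 3′ untranslated region (UTR), where decay factors often bind. GENCODE M21 annotation of the mm10 build (1-based) gave 3′ UTRs of 87 bases in Exosc10, 100 in Exosc8, 126 in Exosc7, 214 in Exosc3, 220 in Exosc9, 416 in Exosc1, 779 in Exosc2, 927 in Exosc5, 962 in Exosc4 and 2176 in Dis3. The median was 987 bases over the 9528 tested genes with an annotated 3′ UTR, so 9 of the 10 members lay below it. The last 30 annotated bases of Exosc1, Exosc5 and Exosc8 held neither of the poly(A) signals AATAAA and ATTAAA. Whether the annotated ends are those used in these cells was not tested. The AU-rich pentamer ATTTA, written as DNA and searched on the transcript strand, occurred in 5 members: once each in Exosc1, Exosc2, Exosc4 and Exosc7 and 5 times in Dis3. It occurred in 66.9% of all 9528 genes. The longer AU-rich form TATTTAT, which contains the pentamer, occurred in 0 members and in 27.9% of all 9528 genes. Among tested genes with a 3′ UTR within 20% of the same length, its share was between 1.93% and 23.0% at the lengths of the 9 shorter members and 39.5% at that of Dis3. The Pumilio-type motif TGTANATA (N is any base) occurred once each in Exosc1, Exosc7 and Dis3. At matched length ATTTA was held by 45.0% of genes for Exosc1, 65.9% for Exosc2, 73.1% for Exosc4, 21.7% for Exosc7 and 91.9% for Dis3, and by between 16.1% and 71.6% for the 5 members without it. TGTANATA was held by 9.74% for Exosc1, 6.82% for Exosc7 and 34.996% for Dis3, and by 24.6% of all 9528 genes. The matches of the fastest falling member (Exosc4) and of both members with the highest slopes (Exosc2 and Dis3) are shown with their flanks, followed by the TGTANATA matches, with the motif in capitals and its first base counted from 1 after the stop codon. A match is a run of letters, not a known site.
Exosc4 ATTTA at base 556: gtgatgagcaATTTAtctgtaaccg
Exosc2 ATTTA at base 261: aacttggagaATTTAtgacttccaa
Dis3 ATTTA at base 246: tgtgatgatcATTTAaatggagtac
Dis3 ATTTA at base 395: agcgtttggcATTTAatctttttgc
Dis3 ATTTA at base 810: tggtattggtATTTAggagtatttt
Dis3 ATTTA at base 1041: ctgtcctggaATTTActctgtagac
Dis3 ATTTA at base 1684: gcaagataaaATTTAaaatgttaaa
Exosc1 TGTANATA at base 398: tttataaataTGTACATAtgtattttgc
Exosc7 TGTANATA at base 49: gacactggttTGTATATAtttctcttaa
Dis3 TGTANATA at base 882: cccaggtattTGTAGATAtagctacagg

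The mRNAs of the complex took different courses. Exosc4 of the ring and Exosc3 of the cap fell furthest, Exosc7 and Exosc1 fell less, and Dis3, Exosc2 and Exosc9 stood above their untreated level at every time with TMM scaling. A straight line over 0, 2, 4 and 6 h, tested with edgeR's quasi-likelihood test at a Benjamini-Hochberg adjusted p under 0.05 over all 10837 genes, called 4 of 10 members as falling and 0 as rising. The same test called 17.2% of all tested genes as falling and 8.63% as rising. At an unadjusted p under 0.05 in edgeR, 5 members fell and 0 rose. DESeq2, at an adjusted p under 0.05, gave 4 and 0. The median slope was −0.038 log2 per h over the members and 0.0014 over all tested genes. Exosc4 stayed past the test in all 12 other settings run, with slopes from −0.37 to −0.25. Without the 4 h library it was the 1 member called, without the 2 or the 6 h library 2 members were called (Exosc3 and Exosc4), and without the untreated library 6 were, with Exosc8 and Exosc10 added. Total counts in place of TMM left 1 fall, ribosomal protein mRNAs as the scale gave 7, and the deposited divisors gave 9.

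**Figure D1:**
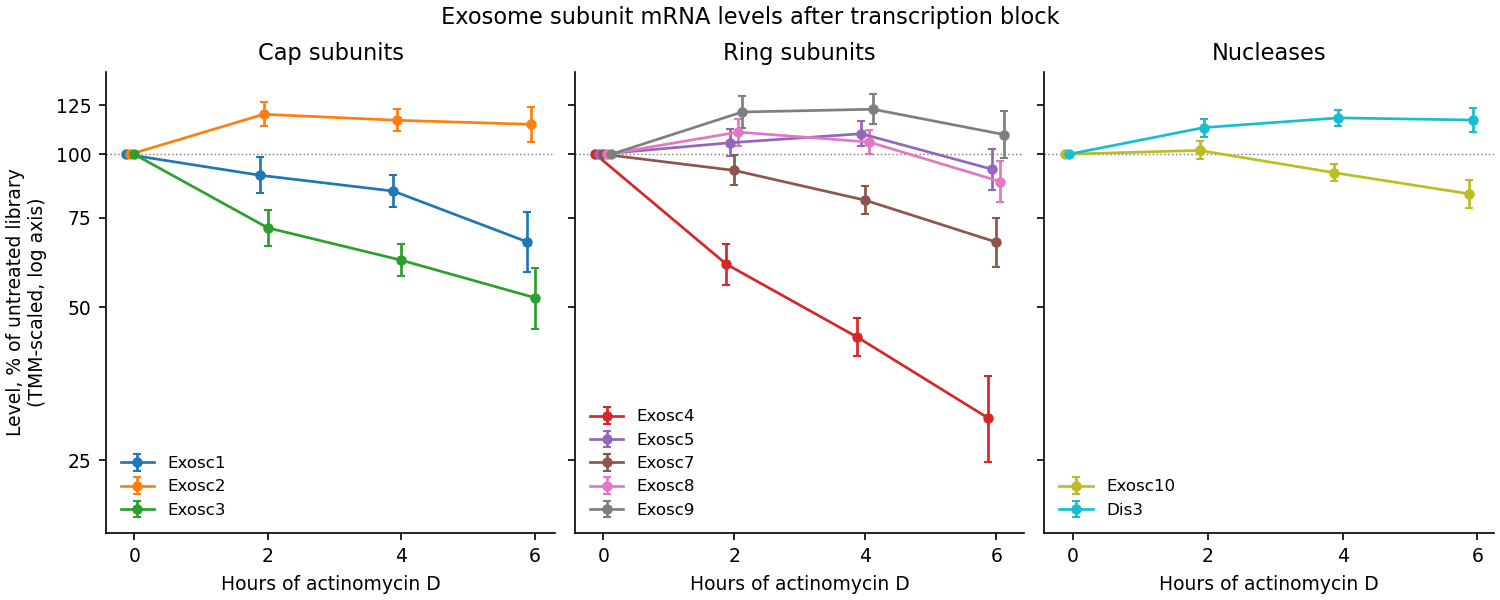
Level of each exosome subunit mRNA as percent of the untreated library (log axis, TMM-scaled) against hours of actinomycin D, in panels for cap, ring and nuclease subunits. Points are single libraries and bars are exact binomial 95% counting intervals. Exosc4 reached 30.3% and Exosc3 52.2% at 6 h, while Exosc2, Exosc9 and Dis3 stayed above 100%.

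Among the cap subunits, which guide RNA into the channel, Exosc3 fell furthest. Exosc3 (chromosome 4, 45316613 to 45342732, minus strand) had 39.5, 28.3, 24.4 and 20.6 CPM at 0, 2, 4 and 6 h, so each library stood below the one before it. It was at 71.7% of untreated at 2 h (interval 66.1 to 77.7%), 61.9% at 4 h (57.5 to 66.6%) and 52.2% at 6 h (45.4 to 59.9%), with a slope of −0.15 ± 0.022 log2 per h (SE, edgeR adjusted p = 0.023). The largest step came first, −0.48 log2 from 0 to 2 h, against −0.21 and −0.24 in the later steps. The adjusted p was 0.0794 without the 4 h library and 0.181 with total counts. Of the 10 members, only Exosc3 and Exosc4 had their largest loss in the first 2 h with TMM.

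Exosc1, the S1-domain subunit at the top of the barrel, fell more slowly. Exosc1 (chromosome 19, 41922292 to 41933423, minus strand) had 34.3, 31.2, 29.0 and 23.1 CPM at 0, 2, 4 and 6 h. At 6 h it was at 67.3% of untreated (58.8 to 76.8%), with a slope of −0.090 ± 0.021 (edgeR adjusted p = 0.046). This call was close to the threshold: the adjusted p was 0.0957, 0.136 and 0.153 without the 2, 4 or 6 h library, 0.0717 with no abundance filter and 0.578 with total counts. Its steepest step was the last, −0.33 log2 from 4 to 6 h.

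Exosc2, the remaining cap subunit, did not pass the line test. Exosc2 (chromosome 2, 31670715 to 31681349, plus strand) had 66.8, 80.1, 78.0 and 76.5 CPM, so all 3 treated libraries lay above the untreated one. Its level was 120% of untreated at 2 h (113 to 127%) and 115% at 6 h (106 to 124%), with a slope of 0.027 ± 0.021 (edgeR adjusted p = 0.359). With the deposited divisors the slope was −0.060 (edgeR adjusted p = 0.0365), and the level at 6 h was 80.0% of untreated.

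The ring subunits ran from Exosc4, the lowest slope of the 10, to Exosc9. Exosc4, whose protein is the RRP41 component of the ring, is encoded on chromosome 15 (76327397 to 76330677, plus strand). Its mRNA had 32.5, 19.7, 14.2 and 9.82 CPM at 0, 2, 4 and 6 h, from 987, 853, 1075 and 120 counts. It stood at 60.8% of untreated at 2 h (55.4 to 66.7%), 43.7% at 4 h (40.0 to 47.7%) and 30.3% at 6 h (24.8 to 36.6%). No interval of one time reached that of the next. The slope was −0.28 ± 0.024 log2 per h (edgeR adjusted p = 0.0145), and 6.80% of the tested genes had a lower one. Steps were −0.72, −0.48 and −0.53 log2. Exon bases shared with Oplah, on the opposite strand, made up 19.8% of the annotated exon bases of Exosc4, and Oplah itself held 52, 89, 146 and 28 counts. The sources used here give no strand setting for the counting, and the part of such overlaps in the results was not tested.

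Exosc7, the RRP42 component, fell more slowly than Exosc4. Exosc7 (chromosome 9, 123113215 to 123136129, plus strand) had 48.7, 45.3, 39.6 and 32.7 CPM. Its level was 93.0%, 81.2% and 67.2% of untreated at 2, 4 and 6 h (interval at 6 h 60.0 to 75.1%), with a slope of −0.096 ± 0.018 (edgeR adjusted p = 0.0323). Each step was larger than the one before, −0.11, −0.19 and −0.27 log2. Without the 2, 4 or 6 h library the adjusted p was 0.0625, 0.114 and 0.0781, and with total counts 0.557.

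The other ring subunits, Exosc5, Exosc8 and Exosc9 (RRP46, RRP43 and RRP45), stood above untreated at 2 and 4 h and were lower at 6 h than at 4 h with TMM. Exosc5 (chromosome 7, 25659164 to 25671368, plus strand) had 56.9, 59.9, 62.4 and 53.1 CPM and ended at 93.4% of untreated (85.2 to 102%). Exosc8 (chromosome 3, 54728678 to 54735393, minus strand) had 56.3, 62.3, 59.5 and 49.8 CPM and ended at 88.4% (80.4 to 97.0%). Exosc9 (chromosome 3, 36552606 to 36565727, plus strand) had 37.9, 45.9, 46.5 and 41.4 CPM and ended at 109% (98.3 to 121%). None of these 3 passed the line test (edgeR adjusted p = 0.712, 0.396 and 0.598). The exons of Exosc9 share 510 bases, 10.8% of its exon bases, with the opposite-strand cyclin gene Ccna2, which had 8249, 10585, 15944 and 2107 counts against 1152, 1984, 3524 and 506 for Exosc9.

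A test of a bend, the quadratic time term in edgeR, called 4 of 10 members, beside 31.1% of all tested genes. The 4 were Exosc2, Exosc5, Exosc8 and Exosc9 (adjusted p = 0.0438, 0.0404, 0.00968 and 0.0113), and all bent downward. Exosc5, Exosc8 and Exosc9 had their largest loss between 4 and 6 h, whereas Exosc2 stood 0.26 log2 above untreated at 2 h and then changed by −0.039 and −0.026 log2 in the later steps. Over all tested genes 1312 bent downward and 2056 upward. At an unadjusted p under 0.05, 5 members bent downward and 0 upward. These calls depended on the scaling and the tool: total counts gave 8 downward bends, whereas ribosomal protein scaling, the deposited divisors and DESeq2 each gave 0. A joint test of line and bend asks whether a course departs from flat. Its direction was the sign of the mean fitted change at 2, 4 and 6 h from untreated, which was not itself tested. By that sign 5 members past the test were lower and 5 higher, beside 36.8% and 32.8% of all tested genes. Exosc8 and Exosc5 counted as higher with mean fitted changes of 0.014 and 0.057 log2, yet stood at 88.4% and 93.4% of untreated at 6 h. With the deposited divisors all 10 were lower. DESeq2 placed 5 lower and 0 higher.

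The nucleases differed from each other. Exosc10 (chromosome 4, 148558429 to 148582401, plus strand) had 131.8, 134.2, 121.2 and 110.2 CPM at 0, 2, 4 and 6 h, close to untreated at 2 h and below it after that. It stood at 83.6% of untreated at 6 h (78.5 to 88.9%), with a slope of −0.046 ± 0.015 (edgeR adjusted p = 0.0806), and passed the test without the untreated library (−0.071, adjusted p = 0.0117). Dis3 (chromosome 14, 99075206 to 99099770, minus strand) had 126.5, 142.8, 149.2 and 147.8 CPM, all 3 treated libraries above the untreated one. Its level was 117% of untreated at 6 h (110 to 124%), with a slope of 0.037 ± 0.015 (edgeR adjusted p = 0.127). With the deposited divisors Dis3 stood at 81.5% at 6 h, with a slope of −0.050 (edgeR adjusted p = 0.0225).

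**Figure D2:**
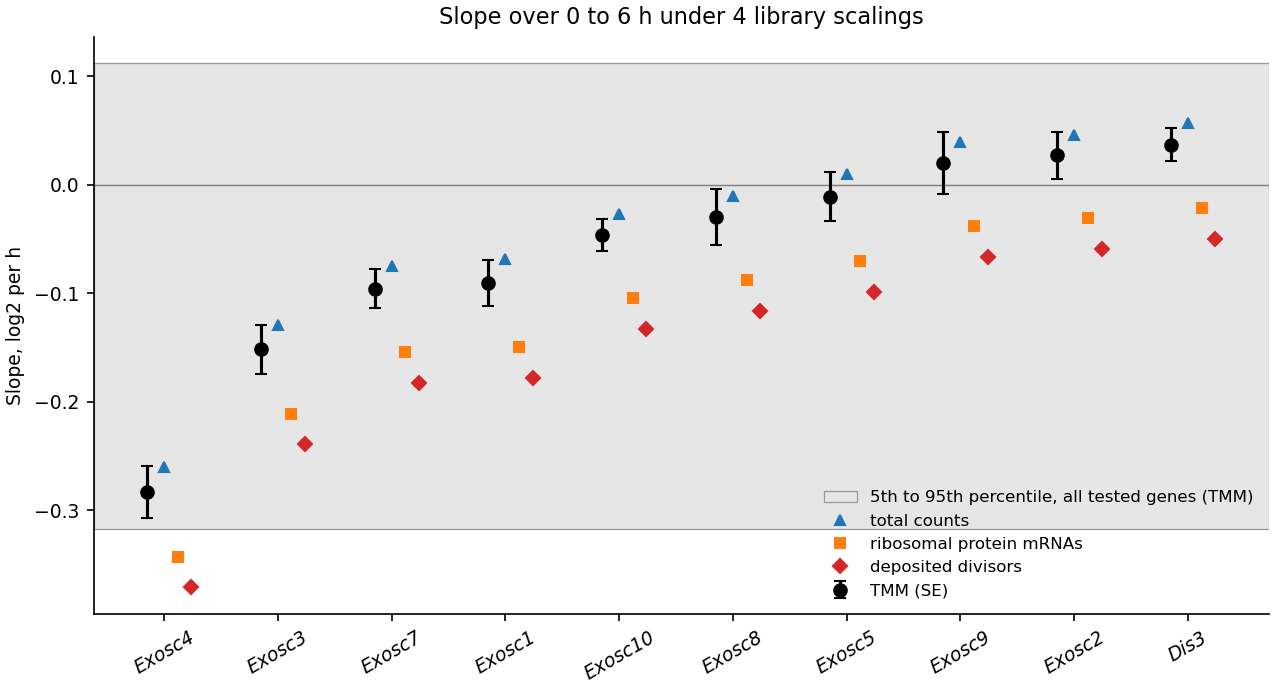
Slope of each exosome subunit mRNA in log2 per h (vertical axis), ordered from lowest to highest, with TMM (black, bars are SE) and with 3 other library scalings. The grey band spans the 5th to 95th percentile of all tested genes with TMM (−0.32 to 0.11). Scaling shifts all members together, from −0.37 to −0.26 for Exosc4 and from −0.050 to 0.057 for Dis3.

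Ratios of 2 members within a library do not depend on how libraries are scaled. The pairs given here were chosen after the levels were seen, each with the member of the lower TMM slope first. That the ratios fell thus follows from the choice, and only their size is informative. How often other gene pairs differ as much was not computed. The count ratio of Exosc4 to Exosc9, both ring subunits, was 0.857 at 0 h (0.786 to 0.934), 0.430 at 2 h (0.396 to 0.466), 0.305 at 4 h (0.285 to 0.327) and 0.237 at 6 h (0.193 to 0.290). At 6 h it was 27.7% of its untreated value. The ratio of Exosc7 to Exosc9 was 1.29, 0.987, 0.852 and 0.791, which left 61.4% of the untreated value. In the cap, the ratio of Exosc3 to Exosc2 was 0.591 (0.550 to 0.635), 0.353, 0.314 and 0.270 (0.234 to 0.310), and that of Exosc1 to Exosc2 was 0.513, 0.389, 0.372 and 0.302. The ratio of Exosc10 to Dis3 was 1.04 (0.997 to 1.09) at 0 h, 0.940 (0.906 to 0.974) at 2 h, 0.813 (0.790 to 0.835) at 4 h and 0.746 (0.694 to 0.801) at 6 h. In each pair the untreated and 6 h intervals did not overlap. All 5 ratios were lower in each library than in the library before it.

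**Figure D3:**
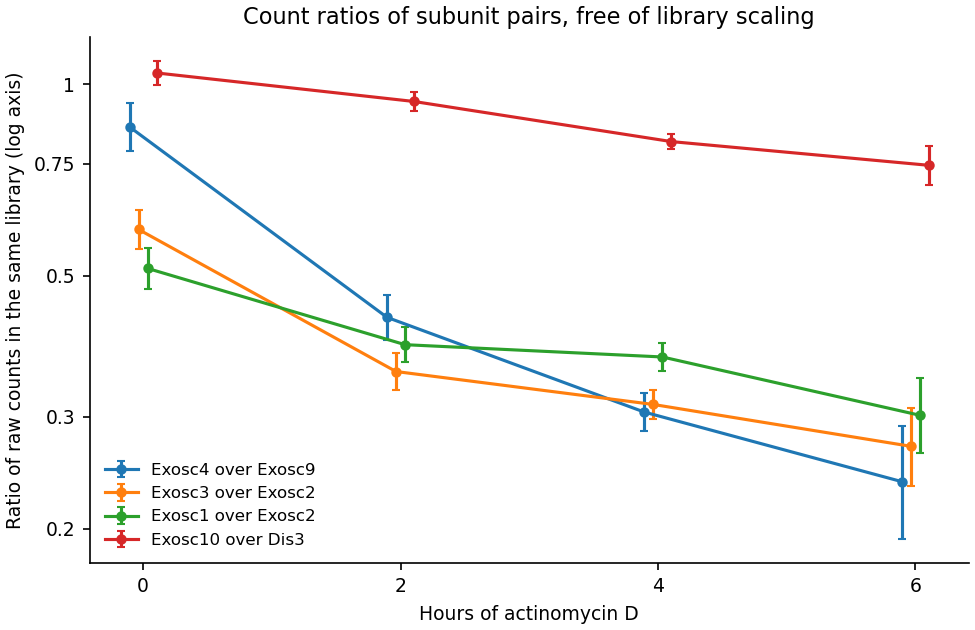
Ratio of raw counts of 2 exosome subunits in the same library (log axis) against hours of actinomycin D, for 4 pairs. Points are single libraries and bars are exact binomial 95% counting intervals. Exosc4 over Exosc9 reached 0.237 at 6 h and Exosc10 over Dis3 0.746.

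The shares of the members' summed counts do not depend on the scaling either. Dis3 held 20.04% of them at 0 h (19.5 to 20.6%), 22.0% at 2 h, 23.9% at 4 h and 26.1% at 6 h (25.1 to 27.2%). Exosc4 held 5.14% (4.83 to 5.46%), 3.04%, 2.27% and 1.74% (1.44 to 2.08%). Exosc2 held 10.6% (10.2 to 11.0%) at 0 h and 13.5% (12.7 to 14.4%) at 6 h, and Exosc3 6.26% (5.92 to 6.61%) and 3.65% (3.22 to 4.12%). By role, the 5 ring subunits held 36.8% at 0 h and 33.1% at 6 h, the cap subunits 22.3% and 21.3%, and the nucleases 40.9% and 45.6%. The cap share at 6 h (20.3 to 22.3%) overlapped that at 0 h (21.7 to 22.9%), while those of the ring and of the nucleases did not overlap. The members of a role did not move together. Of the nucleases only Dis3 gained, and Exosc10 held 20.9% (20.3 to 21.5%) at 0 h and 19.5% (18.6 to 20.5%) at 6 h. In the ring Exosc4 and Exosc7 (7.72% to 5.79%) lost share and Exosc9 gained (6.00% to 7.33%). The intervals of Exosc5 and Exosc8 at 0 and 6 h overlapped.

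Levels of different subunits were compared per length, as CPM per kilobase of the principal annotated transcript. Before treatment the members lay within a 2.61-fold range. Exosc10 was highest at 47.2 (45.8 to 48.7), followed by Exosc7 at 46.3 (44.0 to 48.7), Exosc8 at 43.3 (41.3 to 45.4), Exosc2 at 39.6 (37.9 to 41.4) and Exosc3 at 36.7 (34.6 to 38.8). Exosc5 at 33.8 and Exosc1 at 33.7 were next, then Dis3 at 24.6 (23.8 to 25.4), Exosc9 at 23.4 (22.1 to 24.8) and Exosc4 at 18.1 (17.0 to 19.2). Each neighbour in this order overlapped the next in its counting interval, except that Dis3 lay below Exosc1 (31.7 to 35.8) and Exosc4 below Exosc9. At 6 h the range was 8.30-fold, from 5.47 CPM per kilobase in Exosc4 to 45.4 in Exosc2. These levels depend on the length used: over all annotated exon bases of each gene the untreated range was 4.56-fold, with Exosc10 highest and Exosc9 lowest, and the range at 6 h was 6.07-fold, with Exosc10 highest and Exosc4 lowest.

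A further ring subunit gene, Exosc6, was listed at 0 counts in all 4 libraries, which allows up to 3 counts in each. Its place is chromosome 8 (111056339 to 111057664, plus strand), and all 1326 of its exon bases are also exon bases of Aars, an aminoacyl-tRNA synthetase gene on the same strand. Aars had 7363, 10465, 17903 and 2868 counts. The sources used here do not state what became of reads shared by both genes, so the 0 is no measure of Exosc6 mRNA.

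The authors' deposited table also gives a half-life for each member, from values divided by 1 number per library. All 14957 deposited half-lives were recomputed, within a relative tolerance of 1e-06, from a line through the untreated value on the natural log scale fitted to the 0, 2 and 4 h values. The 6 h library did not enter them. In the authors' deposited table Exosc4 had a half-life of 2.31 h, Exosc3 3.25 h, Exosc7 5.21 h, Exosc1 5.46 h and Exosc10 6.996 h. Exosc8 had 11.0 h, Exosc5 11.5 h, Dis3 17.8 h, Exosc2 19.7 h and Exosc9 28.7 h. The last 6 named, Exosc10 included, thus had a half-life beyond 6 h. Those of Exosc7 and Exosc1 also lay beyond the 4 h that entered the fit. Counting error alone gave 95% intervals of 2.15 to 2.51 h for Exosc4 and 16.04 to 136 h for Exosc9. The authors' R squared was lowest for the longest half-lives, 0.832 for Exosc9 and 0.867 for Exosc2. It lay between 0.986 (Exosc3) and 0.99996 (Exosc7) for the other members. Of 10836 tested genes with a deposited half-life, 12.5% had a shorter positive one than Exosc4, 43.7% than Exosc10 and 79.6% than Exosc9. Their median was 6.38 h, but it ranks negative values, which the fit gives to rising genes, below all positive ones. It is thus lower than the half-life of a typical gene.

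Adding the 6 h value to the same line, an alternative chosen after seeing the data, gave 2.53 h for Exosc4, 3.76 h for Exosc3, 19.4 h for Dis3 and 18.5 h for Exosc9. A free intercept over all 4 times gave 2.71, 4.202, 19.98 and 15.01 h. Exosc9 moved by over 1.5 times in both cases and lost its place as the slowest member to Dis3. The members' median was 8.998 h as deposited, 8.39 h with 6 h added and 8.04 h with a free intercept.

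**Figure D4:**
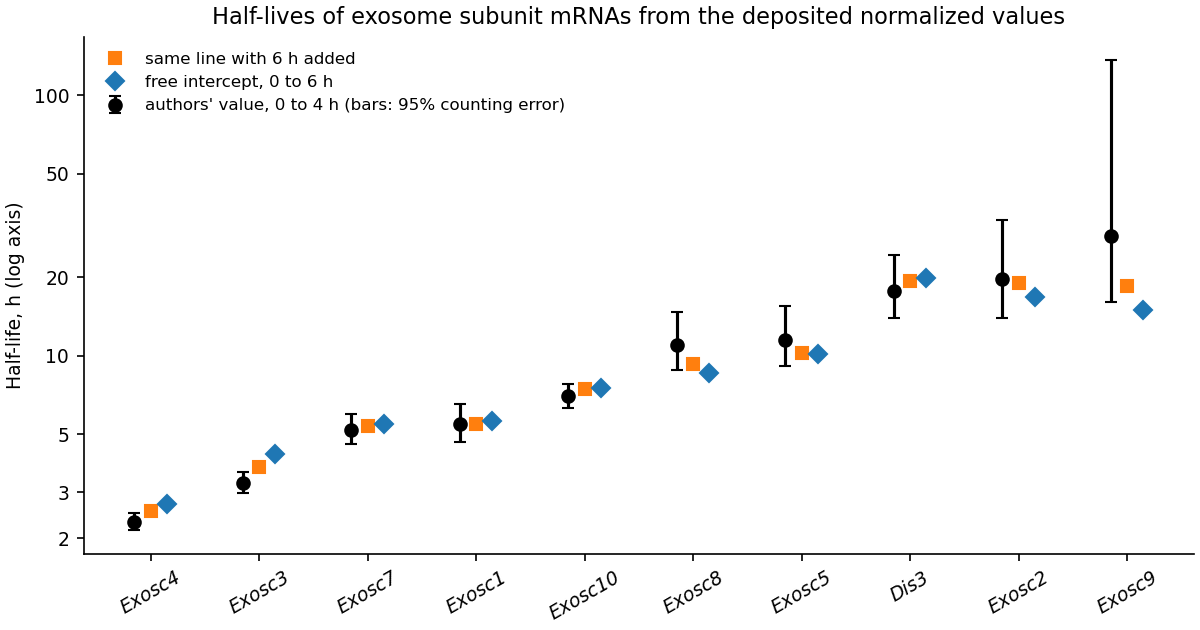
Half-life in h (log axis) of each exosome subunit mRNA, as deposited by the authors from 0 to 4 h (black, bars are 95% counting error), with the 6 h value added (squares) and with a free intercept over 0 to 6 h (diamonds). Exosc4 lay between 2.31 and 2.71 h in the 3 versions and Exosc9 between 15.01 and 28.7 h.

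Genes listed as exosome cofactors were read from lists by compartment. The cytoplasmic list also holds the ribosome-rescue genes Hbs1l and Pelo, whose link to the complex was not tested. Of 18 tested nuclear cofactors 11 fell and 1 rose on the line test, and of 5 cytoplasmic cofactors 0 fell and 1 rose, beside 17.2% falls and 8.63% rises among all tested genes. At an unadjusted p under 0.05, 1 cytoplasmic cofactor fell. The median slope was −0.11 log2 per h in the nuclear and 0.035 in the cytoplasmic list, and the difference between the lists was not tested. Falls in the nuclear list numbered 5 with total counts and 13 with the deposited divisors, and 2 without the 4 h library.

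Zcchc8 and Rbm7, with the helicase MTR4 the parts of the nuclear exosome targeting complex, fell to 34.8% and 64.3% of untreated at 6 h (edgeR adjusted p = 0.018 and 0.0401). Skiv2l2, which encodes MTR4, fell to 60.7% (slope −0.12 ± 0.017, adjusted p = 0.0216). Of the TRAMP-type partners, the poly(A) polymerase genes Papd7 and Papd5 fell to 28.2% and 72.4% (adjusted p = 0.0404 and 0.0361), and the zinc-knuckle gene Zcchc7 fell to 24.8% (adjusted p = 0.0216). Mphosph6, which helps dock MTR4 on the exosome, fell to 35.2% (adjusted p = 0.0361). C1d, the EXOSC10-binding protein, stood at 146% (adjusted p = 0.0755).

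Of the genes linked to the mRNA cap-binding complex, Zc3h18 fell to 61.8% of untreated at 6 h and Ncbp3 to 52.7% (edgeR adjusted p = 0.0187 and 0.02). Gltscr2, a ribosome biogenesis factor that binds MTR4, fell to 52.9% (adjusted p = 0.0162). Pabpn1, the nuclear poly(A)-binding protein, was the 1 rise, at 151% (adjusted p = 0.0261), and 0 nuclear cofactors rose with total counts, ribosomal protein scaling or the deposited divisors. The most abundant of the list by CPM, Srrt, Ncbp1 and Nvl, stood at 113%, 82.7% and 128% (edgeR adjusted p = 0.117, 0.119 and 0.0817).

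In the cytoplasmic list the SKI helicase gene Skiv2l rose, at 139% of untreated at 6 h (slope 0.077 ± 0.014, edgeR adjusted p = 0.0324), and Ttc37 and Wdr61 of the same complex stood at 131% and 110% (adjusted p = 0.055 and 0.216). The ribosome-rescue gene Hbs1l stood at 114% (adjusted p = 0.252), and its partner Pelo, at a mean of 4.46 CPM, at 23.5% (adjusted p = 0.0902). Pelo was already 2.14 log2 below untreated at 2 h, with 106 counts against 329. The joint test placed Pelo lower and the other 4 genes of the list higher, beside 36.8% and 32.8% of all tested genes. On the line test with total counts 1 cytoplasmic cofactor fell and 0 rose. With ribosomal protein scaling it was 0 and 0, and with the deposited divisors 2 fell and 0 rose. The Skiv2l rise was also lost with total counts less 4 dominant genes, with no abundance filter, and without the 0, 2 or 4 h library (0 rises each, and 1 fall without 2 h). At a mean CPM of at least 5, with DESeq2 and without the 6 h library 2 cytoplasmic cofactors rose. Of the relatives of DIS3, Dis3l, the nuclease of cytoplasmic exosomes, fell to 58.2% (slope −0.13 ± 0.023, adjusted p = 0.03), and Dis3l2, which degrades uridylated RNA without the exosome, stood at 129% (adjusted p = 0.0858). Within the DIS3 family the treated libraries of Dis3l thus lay below untreated with TMM, and those of Dis3 and Dis3l2 above it. With the deposited divisors Dis3 stood at 81.5% of untreated at 6 h. The Dis3l fall was not called with total counts, nor without the 4 or the 6 h library.

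The decapping and deadenylation pathways were read the same way. Their shares of falls and rises on the line test lay near those of all tested genes (17.2% and 8.63%). Of 18 decapping and 5′ to 3′ decay genes 4 fell, the decapping activators Dcp1a (37.6% of untreated at 6 h), Edc3 (32.6%) and Edc4 (80.6%) and the RNA-binding ring gene Lsm2 (72.0%), with edgeR adjusted p = 0.0466, 0.0245, 0.0419 and 0.0334. The decapping enzyme gene Dcp2 was the 1 rise (138%, edgeR adjusted p = 0.0284). Of 16 genes in the deadenylase list, which holds enzymes and their partner proteins, 3 fell, Cnot2 (40.2%), Cnot3 (67.7%) and Cnot11 (71.1%). In that list 1 rose, Cnot7 (136%, edgeR adjusted p = 0.0151, 0.0317, 0.0319 and 0.0461 for the 4 genes). Tob2 (26.5%) and Cnot4 (44.6%) did not pass the line test but were lower on the joint test. The joint test placed 6 of the decapping list lower and 10 higher. In the deadenylase list it placed 7 and 7, beside 36.8% and 32.8% of all tested genes. Median slopes were 0.026 and −0.018 log2 per h. With the deposited divisors the falls numbered 10 and 9 and the rises 0 and 0, and without the 4 h library 1 and 1 fell.

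**Figure D5:**
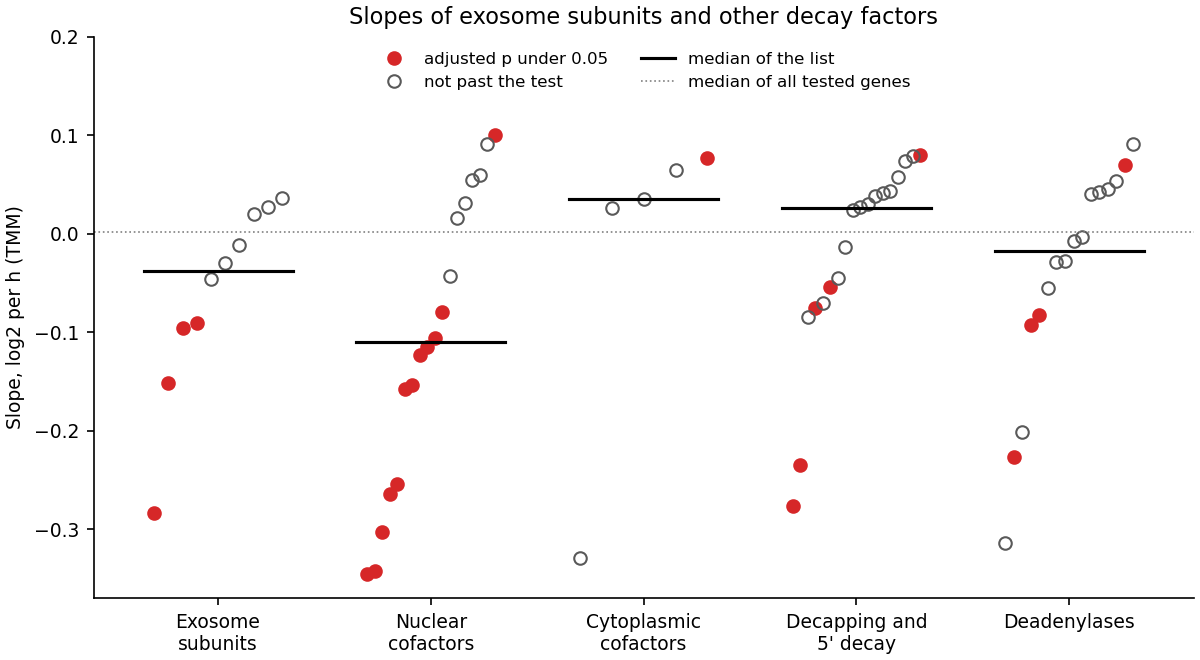
Slope in log2 per h (TMM) of each tested gene in the exosome subunit list and in 4 lists of other RNA decay factors, ordered within each list. Filled points passed the edgeR test at an adjusted p under 0.05, bars are list medians, and the dotted line is the median of all tested genes. The nuclear cofactors had the lowest median, −0.11, and 11 of 18 fell.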

How the data were processed

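RNA of 4 RAW264.7 samples was sequenced after ribosomal RNA depletion with a directional kit, per the labels' protocols. STAR 2.5.3a, featureCounts, Subread 1.6.3 and the mm10 build are named in the submitters' processing notes. The deposited raw counts per gene, whole numbers, were used as deposited. The deposited normalized signal is these counts divided by the authors by 1300, 2250, 4476 and 748, and the sources used here do not say where these come from. The authors' half-lives and R squared were taken as a score.

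Slopes, bends and joint tests were fitted over all 10837 genes with a mean CPM of at least 1 in edgeR 4.0.16 (R 4.3.3), with 2 residual degrees of freedom for the line and 1 for the curve; p-values adjusted over all of them measure only the spread of these libraries around the fit, which may be technical. Log2 changes used a prior count of 0.5. DESeq2 1.42.0, other scalings, filters and leaving out each library were alternatives. The tests were checked on simulated data. Members, gene lists and tests were chosen with earlier results of these data known. The rule for named genes took all members and, from each list, genes past a test above a CPM minimum of 5, and the 3 most abundant; those past the bend or joint test alone, and some others, are given by count or not at all. Symbols matched GENCODE M21 for 9818 tested genes. Columns not matched to a sample numbered 0.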

Additional observations from a re-analysis of the deposited data

How the results depend on the processing

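Each scaling moved the slopes of the 10 members together. Falls numbered 1 with total counts, 7 with ribosomal protein scaling and 9 with the deposited divisors, and 1 to 6 when each library was left out in turn; rises numbered 0 throughout. Downward bends numbered 8 with total counts, 2 with no filter and 0 with ribosomal protein scaling, the deposited divisors or DESeq2, and upward bends 1 with either of these 2 scalings. In the joint test 3 members were higher with total counts less 4 dominant genes, 0 with DESeq2, and 8 were lower and 0 higher with ribosomal protein scaling, and 10 and 0 with the deposited divisors. The members' median level at 6 h was 86.0% of untreated with TMM, 96.6% with total counts, 67.1% with ribosomal protein scaling and 60.0% with the deposited divisors.

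The mean fitted change turned to 0.15 log2 for Exosc10 with total counts, and for Exosc8 to −0.035 with total counts less 4 genes and −0.0018 at a mean CPM of at least 5. With ribosomal protein scaling it was −0.11, −0.25, −0.30, −0.083 and −0.10 for Exosc2, Exosc5, Exosc8, Exosc9 and Dis3, and with the deposited divisors −0.22, −0.37, −0.41, −0.20 and −0.21. The slopes of Exosc2 and Dis3 turned to −0.060 and −0.050 with the deposited divisors. The cause of these changes was not tested, beyond the shift that each scaling gives to all genes. All-gene counts were 1859 falls and 935 rises with TMM, and 5039 and 78 with the deposited divisors. Leaving out 4 h gave 351 and 25. At 6 h, 120 counts of Exosc4 set its precision. No paired analysis was possible because the labels give no replicate numbers and each time has 1 library.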

Other observations

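The members' median profile (0.050, −0.020 and −0.22 log2 at 2, 4 and 6 h) lay near that of many other genes. Over these 3 changes, the nearest of 6273 candidate genes at a mean CPM of at least 20 were Lmf1, Stx2, Ppp1cc, Topbp1 and Exoc6, at Euclidean distances of 0.017 to 0.032. The closest member, Exosc10, lay at 0.11, and 114 candidates lay closer than it. The members' own median distance was 0.50, and 2443 candidates lay within that. The profiles rest on 4 libraries that all genes share.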
